A study of Mus musculus with 16 samples.

Results

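The Bcl2 family was followed here through 10 genes out of the 47643 listed in each deposited table of splenic CD4+ T cell transcripts. The genes were taken by symbol and grouped by role. The anti-apoptotic members were Bcl2, Mcl1, Bcl2l1 (Bcl-xL) and Bcl2a1b (A1). The BH3-only members were Bcl2l11 (Bim), Bbc3 (Puma), Bid and Bad, and the effector members were Bax and Bak1. The family was chosen with the genotype differences of Bcl2 in both subsets already known. Its genotype differences are therefore described without p-values, and they support nothing beyond the measured values.

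Proteins of this family decide at the mitochondrial outer membrane whether a cell enters intrinsic apoptosis. Bax and Bak1 form the pores that release cytochrome c, the anti-apoptotic proteins hold them and the BH3-only proteins in check, and BH3-only proteins activate the effectors or occupy the anti-apoptotic proteins. In resting T cells Bcl2 is sustained by cytokine signals such as IL-7, while Treg survival is known to depend on Mcl1 and to be limited by Bim.

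The mutant animals were TRaGS mice, whose thyroid hormone receptor alpha has lost DNA binding, and the controls were TRaWT littermates. Spleens of 4 TRaGS and 4 TRaWT mice each gave a CD25- CD4+ fraction, called CD4 below, and a CD25+ CD4+ fraction, called Treg, which made 16 libraries in 4 groups of 4. The labels name no treatment and no driver that would restrict the mutation to a cell type, and neither ages nor sexes of the mice were at hand. Per the labels' protocols, CD4+ cells were enriched magnetically and sorted, and the libraries read the 3' ends of mRNAs, so that splice forms such as those of Bcl2l1 and Bcl2l11 were not told apart.

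The libraries held 2679119 to 5095278 recovered reads. Foxp3, which defines Treg, averaged 1156 ± 199 normalised counts in TRaGS Treg and 1165 ± 65.4 in TRaWT Treg (SD, n = 4 each). In CD4 it averaged 116 ± 58.7 in TRaGS and 80.9 ± 38.0 in TRaWT, on a separately normalised scale. The T cell gene Cd3e lay between 768 and 1298 in all libraries, and the B cell gene Cd79a was at most 1.17 in Treg and reached 49.5 in 1 TRaGS CD4 library. The labels call the CD25- cells naive, but the sort named there used CD4 and CD25 only.

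The genotype that lost receptor DNA binding, and the role of forkhead factors such as Foxo3 as known activators of Bcl2l11 and Bbc3, are the reasons to show promoter sequence. RefSeq promoters of build GRCm38.p6 (250 bases before to 50 after a start) were found for 10 of 10 members, 16 promoters in all. Capitals mark matches on either strand to GTAAACA, a forkhead site, and would also mark AGGTCA, the core element that thyroid hormone receptors bind. Shown are the promoter of Bcl2 on chr1:106714241-106714540 (minus strand), the first promoter of Bcl2l11 on chr2:128125788-128126087 (plus strand) and the second of Bbc3 on chr7:16310011-16310310 (plus strand).
Bcl2: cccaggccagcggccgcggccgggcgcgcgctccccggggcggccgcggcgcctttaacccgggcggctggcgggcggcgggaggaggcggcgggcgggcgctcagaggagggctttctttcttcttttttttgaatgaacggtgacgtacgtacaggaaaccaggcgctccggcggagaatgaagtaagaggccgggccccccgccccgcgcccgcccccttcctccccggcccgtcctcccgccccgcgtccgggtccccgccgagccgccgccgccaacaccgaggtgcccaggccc
Bcl2l11: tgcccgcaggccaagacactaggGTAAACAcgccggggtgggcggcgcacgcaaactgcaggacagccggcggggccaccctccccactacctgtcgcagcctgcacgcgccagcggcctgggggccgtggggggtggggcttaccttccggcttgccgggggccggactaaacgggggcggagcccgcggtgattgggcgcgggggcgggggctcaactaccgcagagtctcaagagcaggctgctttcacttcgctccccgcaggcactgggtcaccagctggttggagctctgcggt
Bbc3: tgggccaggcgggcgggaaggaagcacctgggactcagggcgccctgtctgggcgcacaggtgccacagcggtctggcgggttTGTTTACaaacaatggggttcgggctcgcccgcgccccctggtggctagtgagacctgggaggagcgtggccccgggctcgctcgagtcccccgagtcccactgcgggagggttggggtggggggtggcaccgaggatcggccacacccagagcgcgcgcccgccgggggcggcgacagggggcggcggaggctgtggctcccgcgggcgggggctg

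The Bcl2 promoter, 76.0% G or C, held neither motif. In Bcl2l11 the forkhead match began at position -227 from the start, and in Bbc3 it lay on the other strand and began at position -167. No other member promoter held GTAAACA, which 3.65% of 32851 mouse promoters held. AGGTCA was found in 1 member promoter, the first of Bcl2l1, and in 16.3% of all promoters. The spaced repeat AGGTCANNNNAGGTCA was in 0 member promoters and in 0.0152% of all. These matches are letters in a short window and do not show binding.

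In both subsets most of the family's signal came from Bcl2 and Mcl1. Together they made up 74.6% to 91.9% of the normalised counts of the 10 genes in the 16 libraries. In a 3' tag library a transcript gives reads from its end whatever its length, so counts of different genes were set side by side without a length correction. The other anti-apoptotic members were far lower, and Bcl2l11 was the most abundant pro-apoptotic member by mean in every group.

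Bcl2, the founding anti-apoptotic member (ENSMUSG00000057329, chromosome 1, 106538178 to 106714274, GRCm38, minus strand), differed by genotype in opposite directions in the 2 subsets. In CD4 it had 2526, 2664, 2156 and 2577 normalised counts in TRaGS replicates 1 to 4, against 1341, 1438, 1134 and 937 in TRaWT replicates 1 to 4. All TRaGS libraries exceeded all TRaWT libraries, among which replicate 4 was lowest. The means were 2481 ± 224 in TRaGS and 1212 ± 223 in TRaWT (SD, n = 4 each), a log2 fold change of 1.05 ± 0.21 (SE). Without TRaWT replicate 4 it was 0.93 and no longer passed the threshold given below.

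In Treg the same gene had 1306, 1162, 811 and 922 normalised counts in TRaGS replicates 1 to 4, against 1871, 1952, 1586 and 1938 in TRaWT replicates 1 to 4. Here every TRaGS value lay below every TRaWT value, and TRaGS replicates 3 and 4 were the lowest. The means were 1050.3 ± 225 in TRaGS and 1837 ± 171 in TRaWT (SD, n = 4 each), a log2 fold change of -0.83 ± 0.15 (SE). With TRaGS replicates 1 and 2 alone, whose animal numbers lie nearest to those of the TRaWT mice, it was -0.57 and no longer passed, while in CD4 the same 2 animals gave 1.12. In bulk RNA, fewer cells of a type and less RNA per cell cannot be told apart.

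Bcl2 was the 1 member that passed the limma threshold in each subset, a Benjamini-Hochberg adjusted p under 0.05 over all genes. In CD4 that was 1 of 9 members tested, where 0.0575% of 10426 genes passed. In Treg it was 1 of 10, where 0.959% of 11051 genes passed. Because the family was chosen for Bcl2, nothing is read from these counts. The log2 fold changes of the tested members had a median of 0.55 in CD4, against -0.01 over all genes, and of -0.03 in Treg, against 0.01 over all genes. The CD4 median is the value of Bax, whose SE was 1.01. The members there ran from -2.74 for Bbc3 to 1.05 for Bcl2, so the median shows no common shift.

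**Figure D1:**
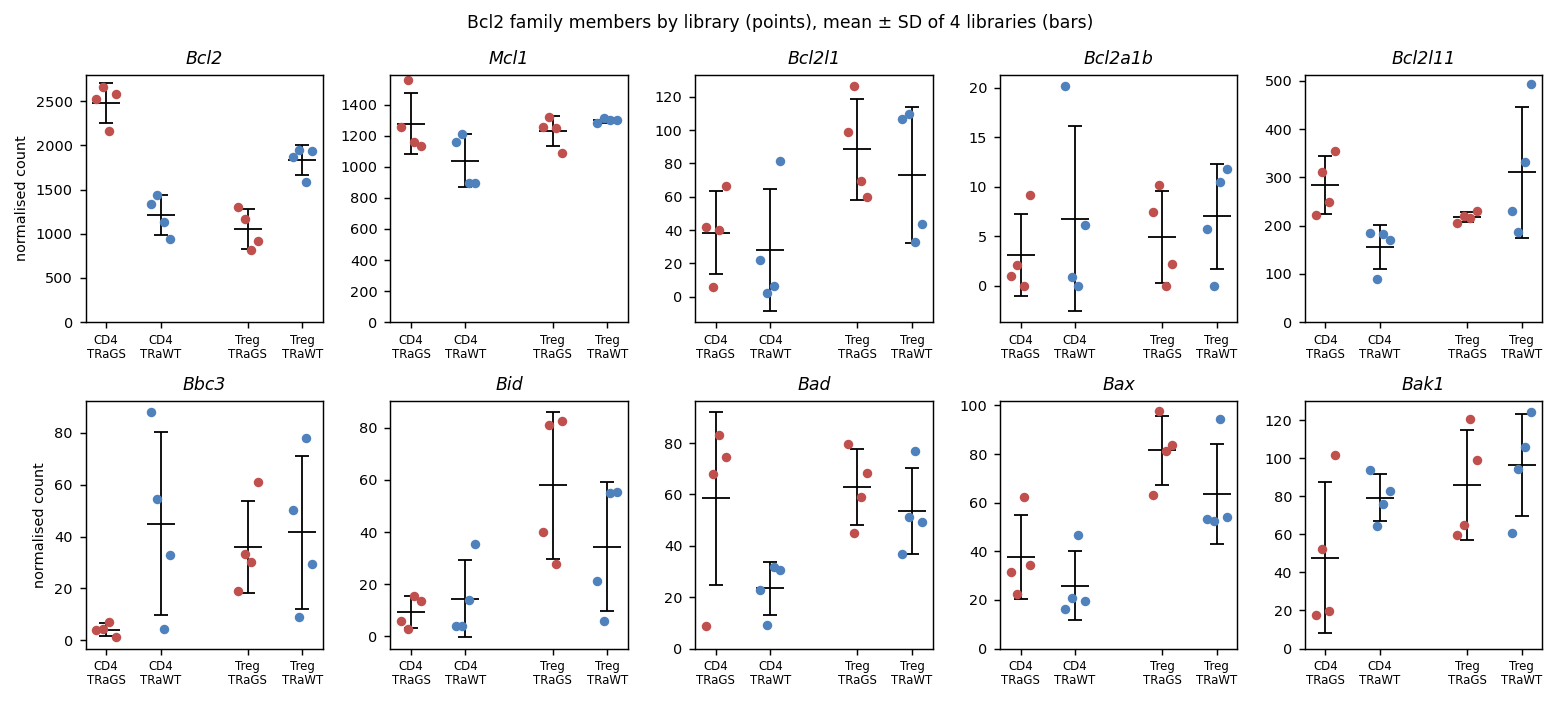
Normalised counts (vertical axes, a linear scale of its own for each gene) of the 10 members in the 4 groups (horizontal axes); points are libraries and bars the mean and SD of 4. Bcl2 stands at 2156 to 2664 in TRaGS CD4 against 937 to 1438 in TRaWT CD4, and at 811 to 1306 in TRaGS Treg against 1586 to 1952 in TRaWT Treg.

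Mcl1, a short-lived anti-apoptotic protein that T cells require, overlapped between genotypes in both subsets. In Treg it had 1257, 1322, 1248 and 1089.7 normalised counts in TRaGS replicates 1 to 4 and 1278, 1313, 1299 and 1301 in TRaWT replicates 1 to 4. The groups overlapped, and the log2 fold change was -0.08 ± 0.14 (SE). In CD4 it had 1132 to 1558 in TRaGS and 893 to 1212 in TRaWT, with a log2 fold change of 0.30 ± 0.23 (SE), and neither difference passed the threshold.

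Set against Mcl1 in the same library, where the scale factor cancels, Bcl2 still separated the genotypes. This ratio was chosen after seeing the data. In CD4 the log2 ratio of Bcl2 to Mcl1 was 0.97 ± 0.18 in TRaGS and 0.22 ± 0.11 in TRaWT (SD, n = 4 each), and every TRaGS library was above every TRaWT library. In Treg it was -0.25 ± 0.28 in TRaGS and 0.50 ± 0.14 in TRaWT, and every TRaGS library was below every TRaWT library. On the linear scale TRaGS Treg libraries held 0.650 to 1.04 Bcl2 counts per Mcl1 count, and TRaWT Treg libraries 1.22 to 1.49.

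The 2 remaining anti-apoptotic genes were low and variable. Bcl2l1, encoding Bcl-xL, had 5.66 to 66.5 normalised counts in TRaGS CD4 and 2.51 to 81.7 in TRaWT CD4, and 59.8 to 127 in TRaGS Treg and 32.7 to 109.7 in TRaWT Treg. The log2 fold change was 1.00 ± 1.14 (SE) for CD4 and 0.40 ± 0.39 (SE) for Treg, within overlapping groups. Bcl2a1b, encoding an A1 protein, had 0 to 25 reads per library and was below the filter in CD4. It had 0 reads in TRaGS replicate 3 of both subsets, TRaWT CD4 replicate 3 and TRaWT Treg replicate 2, which allows up to 0.941, 1.01, 1.03 and 0.993 RPM (recovered reads of a gene scaled to the library's total) in these libraries, for counting error only.

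Counts of Bcl2a1b are also uncertain because near-identical copies exist. Of 351 overlapping words of 50 bases in the last 400 bases of its longest transcript, 58.4% occur in Bcl2a1d and 31.3% in Bcl2a1a. These copies were themselves at 0 in most libraries, with at most 16.1 normalised counts for Bcl2a1d in 1 TRaWT CD4 library and 7.47 for Bcl2a1a in 1 TRaGS Treg library. How reads were divided between the copies was not stated in the sources at hand.

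Bcl2l11, whose product Bim is the main BH3-only killer of lymphocytes, was higher in all TRaGS CD4 libraries. In CD4 it had 223, 311, 248 and 354 normalised counts in TRaGS replicates 1 to 4, against 184, 89.4, 182 and 169.5 in TRaWT replicates 1 to 4. The groups did not overlap, and TRaWT replicate 2 was lowest. The log2 fold change of 0.89 ± 0.42 (SE) did not pass the threshold.

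In Treg, Bcl2l11 had 206, 220.5, 216 and 229 normalised counts in TRaGS replicates 1 to 4, against 230.1, 186, 332 and 493 in TRaWT replicates 1 to 4. TRaGS libraries lay close together while TRaWT replicates 3 and 4 were higher, and the groups overlapped. The log2 fold change was -0.41 ± 0.23 (SE), or -0.15 without TRaWT replicate 4, and did not pass. The sign of the point estimate thus followed that of Bcl2 in each subset. Members without overlap between genotypes were Bcl2 and Bcl2l11 in CD4, 2 of 9 tested against 3.16% of all genes, and Bcl2 in Treg, 1 of 10 against 5.07% of all genes. Counted with TRaGS above only, they were 2 of 9 in CD4 against 1.43% of all genes and 0 of 10 in Treg against 2.84%. Because the family was chosen for Bcl2, nothing is read from these counts without overlap.

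Bbc3, encoding Puma, a p53 target, was scarce in CD4 of the mutant. It had 3.91, 4.24, 7.18 and 1.15 normalised counts in TRaGS CD4 replicates 1 to 4, from 1 to 7 reads each, against 88.0, 54.3, 4.36 and 32.9 in TRaWT CD4 replicates 1 to 4. Of the TRaWT libraries, 3 lay above all TRaGS libraries and replicate 3 fell among them. The log2 fold change was -2.74 ± 1.31 (SE) and did not pass. In Treg, Bbc3 had 19.1 to 60.9 in TRaGS and 9.05 to 78.1 in TRaWT, a log2 fold change of 0.03 ± 0.59 (SE) whose sign changed in 7 of 18 alternative settings.

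The other BH3-only genes overlapped between genotypes in both subsets. Bid, which links death receptors to mitochondria, had 27.9 to 82.6 normalised counts in TRaGS Treg and 6.04 to 55.2 in TRaWT Treg, with a log2 fold change of 1.01 ± 0.58 (SE). In CD4 it had 2.83 to 15.4 in TRaGS and 4.04 to 35.4 in TRaWT. Bad, a sensitizer controlled by phosphorylation, had 8.80, 67.9, 83.0 and 74.5 in TRaGS CD4 replicates 1 to 4, against 22.6, 9.19, 31.6 and 30.5 in TRaWT CD4 replicates 1 to 4. All but TRaGS replicate 1 lay above TRaWT, with a log2 fold change of 1.03 ± 0.98 (SE). In Treg, Bad had 44.8 to 79.7 in TRaGS and 37.0 to 77.0 in TRaWT.

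The pore-forming effectors gave no separation of the genotypes. Bax had 63.1, 97.6, 81.4 and 83.7 normalised counts in TRaGS Treg replicates 1 to 4, against 53.4, 52.3, 94.5 and 54.0 in TRaWT Treg replicates 1 to 4. TRaWT replicate 3 stood apart from the other 3 and within the TRaGS range, and the log2 fold change was 0.38 ± 0.37 (SE). In CD4, Bax had 22.6 to 62.5 in TRaGS and 16.1 to 46.8 in TRaWT. Bak1 had 17.6 to 102 in TRaGS CD4 and 64.3 to 93.6 in TRaWT CD4, and 59.8 to 120.5 in TRaGS Treg and 60.8 to 124 in TRaWT Treg, with log2 fold changes of -1.07 ± 0.77 and -0.18 ± 0.34 (SE).

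**Figure D2:**
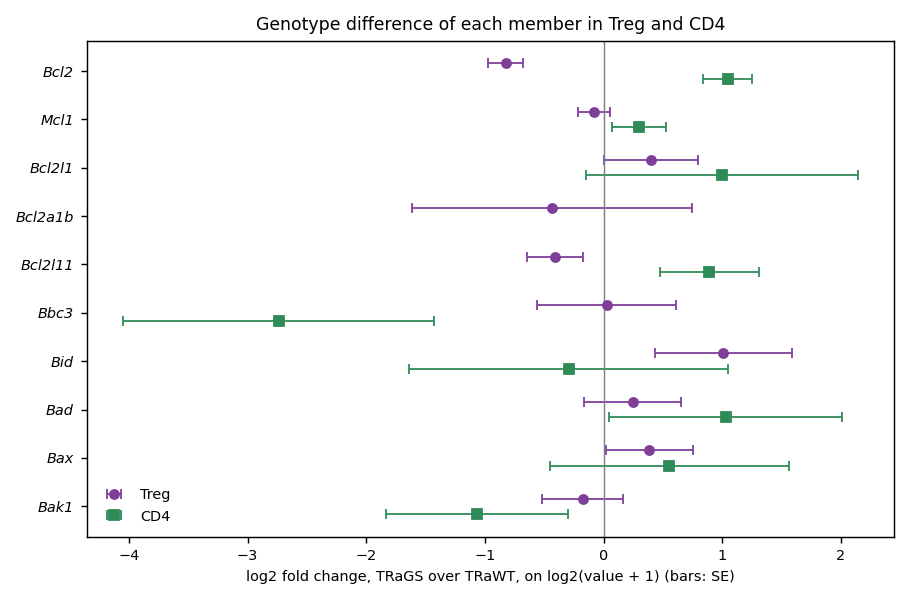
Log2 fold change, TRaGS over TRaWT (horizontal axis), of each member (vertical axis) in Treg (circles) and CD4 (squares) with its SE; Bcl2a1b was not tested in CD4. Bcl2 lies at -0.83 in Treg and 1.05 in CD4, and the bars of the scarce members are the widest.

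Whether the genotype difference itself differed between subsets was measured per animal, as its log2 value in Treg minus that in CD4, so that a fixed offset between tables drops out. For Bcl2 the TRaGS minus TRaWT contrast of that difference was -1.87 ± 0.22 (SE), and Bcl2 was the 1 member of 9 tested that passed, where 0.171% of 9914 genes passed. Since the opposite effects were known when the family was chosen, nothing is read from that call. For Bcl2l11 it was -1.30 ± 0.44 and for Mcl1 -0.38 ± 0.23 (SE), and neither passed. Bbc3 had 2.76 ± 1.37, and the other tested members lay between -0.78 and 1.30. With a variance trend on the average difference in place of mean expression no gene passed in limma, while 591 had an unadjusted p under 0.05.

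The same pattern shows when both subsets of an animal are set side by side. Because the tables were normalised separately, these levels are in RPM and carry no test. In TRaGS mice Bcl2 averaged 334 ± 85.0 RPM in Treg and 750.4 ± 74.0 in CD4 (SD, n = 4), and was lower in Treg in 4 of 4 animals. In TRaWT mice it averaged 561 ± 73.6 in Treg and 386 ± 92.9 in CD4, and was higher in Treg in 4 of 4 animals.

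Bcl2l11 crossed over likewise. In TRaGS mice it had 66.8, 73.4, 65.4 and 69.7 RPM in Treg of replicates 1 to 4, against 67.3, 86.4, 75.9 and 115 in CD4 of the same animals. It was lower in Treg in 4 of 4 animals, though almost level in replicate 1. In TRaWT mice it had 72.1, 61.3, 97.9 and 139 in Treg, against 61.9, 29.2, 57.3 and 48.4 in CD4, higher in Treg in 4 of 4 animals.

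The pro-apoptotic genes Bax and Bid were higher in Treg whatever the genotype. Bax averaged 25.8 ± 4.99 RPM in TRaGS Treg and 11.5 ± 5.47 in TRaGS CD4, and 19.3 ± 5.77 in TRaWT Treg and 8.14 ± 4.45 in TRaWT CD4 (SD, n = 4 each). Bid averaged 18.4 ± 9.08 in TRaGS Treg and 2.94 ± 1.96 in TRaGS CD4, and 10.1 ± 6.93 in TRaWT Treg and 4.32 ± 4.12 in TRaWT CD4. Both were higher in Treg in 8 of 8 animals. Bid had only 4 to 29 reads in CD4 libraries, and TRaWT replicate 2 had 6 in Treg against 5 in CD4. The trait was not theirs alone. Mcl1 was higher in Treg in 7 of 8 animals, Bcl2l1 and Bak1 in 6 of 8, and Bad and Bbc3 in 5 of 8. The share over all genes was not counted. Gm42418, a transcript that overlaps ribosomal RNA, took 20.8% to 41.1% of reads. Leaving it out kept these counts of animals, except that Mcl1 was then higher in 5 of 8.

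**Figure D3:**
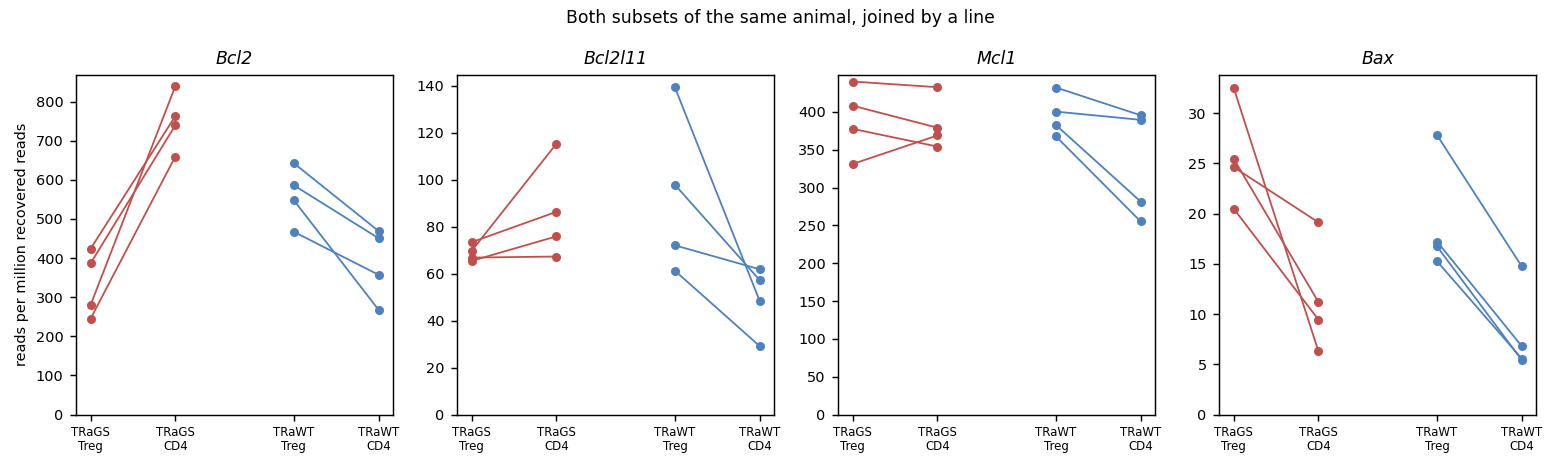
RPM, the recovered reads of a gene scaled to the library's total (vertical axes, from 0) of 4 members in Treg and CD4 of each animal, joined by a line, TRaGS on the left and TRaWT on the right of each panel. Lines for Bcl2 slope up towards CD4 in all 4 TRaGS animals and down in all 4 TRaWT animals, and those for Bax slope down in all 8.

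The balance between the sides of the family was taken within each library as the log2 ratio of the summed anti-apoptotic to the summed pro-apoptotic counts. Only the members entered it, and the 10 other listed pro-apoptotic family genes were left out. Those genes summed to 461 ± 248 normalised counts in TRaGS CD4 and 308 ± 51.2 in TRaWT CD4. In Treg they summed to 372 ± 86.8 in TRaGS and 268 ± 26.4 in TRaWT. In CD4 the balance of the members was 3.72, 3.20, 2.94 and 2.71 in TRaGS replicates 1 to 4, against 2.64, 3.45, 2.52 and 2.37 in TRaWT replicates 1 to 4. TRaWT replicate 2 lay among the TRaGS libraries, so the groups overlapped, and the means were 3.14 ± 0.43 in TRaGS and 2.74 ± 0.48 in TRaWT (SD, n = 4 each).

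In Treg the balance was 2.51, 2.27, 1.99 and 1.73 in TRaGS replicates 1 to 4, against 2.85, 3.08, 1.98 and 2.03 in TRaWT replicates 1 to 4. The 4 TRaWT libraries fell into a higher and a lower pair, and the lower pair lay inside the TRaGS range. The means were 2.13 ± 0.34 in TRaGS and 2.48 ± 0.56 in TRaWT, a difference of -0.36, which is smaller than the spread within TRaWT. The genotype difference of Bcl2 thus did not carry over to a separated balance in either subset.

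The sums behind these ratios separated the genotypes on the anti-apoptotic side. Bcl2, for which the family was chosen, averaged 58.5% and 45.9% of the family's counts in TRaGS and TRaWT CD4. In Treg it averaged 35.7% in TRaGS and 48.1% in TRaWT. The separation of the sums thus repeats that of Bcl2 and is no further result. In CD4 the anti-apoptotic sum was 3798 ± 358 in TRaGS and 2286 ± 365 in TRaWT, and the pro-apoptotic sum 442 ± 119 in TRaGS and 344 ± 71.5 in TRaWT (SD, n = 4 each). In Treg the anti-apoptotic sum was 2373 ± 315 in TRaGS and 3214 ± 196 in TRaWT, and the pro-apoptotic sum 542 ± 64.2 in TRaGS and 600.1 ± 204 in TRaWT. The pro-apoptotic sums overlapped between genotypes in both subsets. Bcl2l11 made up 65.6% ± 8.64 of the pro-apoptotic sum in TRaGS CD4 and 44.7% ± 5.91 in TRaWT CD4, without overlap, and 40.5% ± 2.98 in TRaGS Treg and 50.8% ± 7.37 in TRaWT Treg. Without Bcl2 the balance differed between genotypes by -0.05 in CD4 and 0.02 in Treg.

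Ratios of Bcl2 to Bcl2l11 and to Bax also overlapped between genotypes. The log2 ratio of Bcl2 to Bcl2l11 was 3.15 ± 0.26 in TRaGS CD4 and 2.99 ± 0.69 in TRaWT CD4, and 2.24 ± 0.35 in TRaGS Treg and 2.66 ± 0.66 in TRaWT Treg (SD, n = 4 each), with overlap in both subsets. For Bcl2 to Bax in Treg it was 3.68 ± 0.47 in TRaGS and 4.90 ± 0.55 in TRaWT. Only TRaWT replicate 3, at 4.07, reached the TRaGS range of 3.32 to 4.37. In CD4 the ratio to Bax was 6.14 ± 0.74 in TRaGS and 5.67 ± 0.78 in TRaWT, with overlap. Over the 6 pro-apoptotic members in both subsets, 10 of 12 such ratios overlapped, a count made after the values were seen. The exceptions were Bcl2 counts per Bak1 count in CD4, at 25.3 to 144 in TRaGS and 11.3 to 22.4 in TRaWT, and per Bbc3 count in CD4, at 300.4 to 2249 in TRaGS and 15.2 to 260.2 in TRaWT. The TRaGS values for Bbc3 rest on 1 to 7 Bbc3 reads a library.

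**Figure D4:**
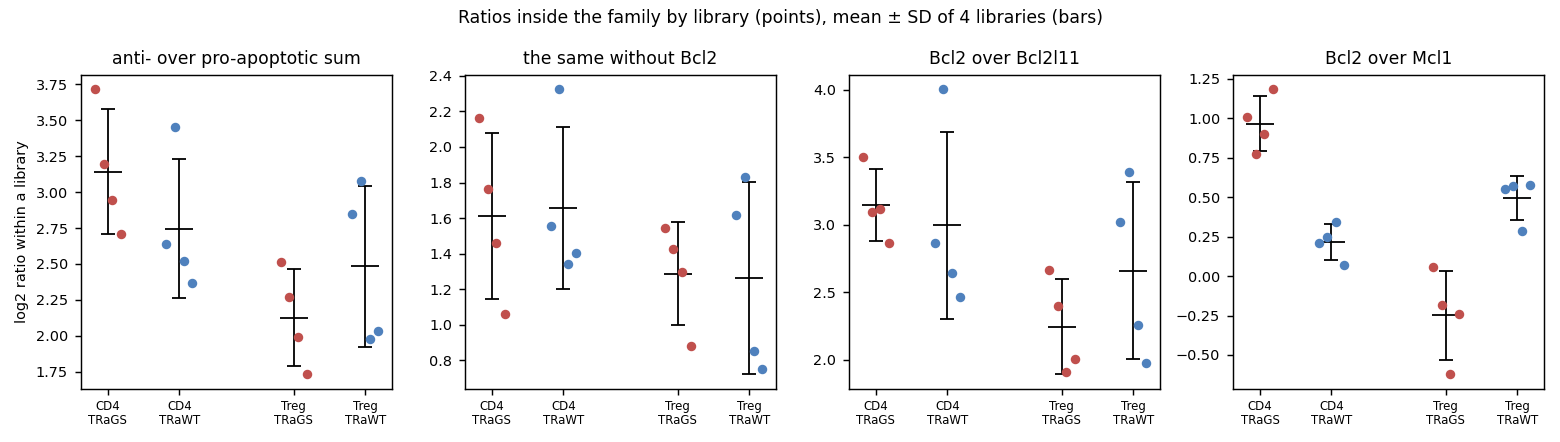
Log2 ratios within a library (vertical axes) in the 4 groups (horizontal axes); points are libraries and bars the mean and SD of 4. The summed balance overlaps between genotypes in both subsets, whereas Bcl2 over Mcl1 does not: 0.77 to 1.19 in TRaGS CD4 against 0.07 to 0.34 in TRaWT CD4, and -0.62 to 0.06 in TRaGS Treg against 0.29 to 0.58 in TRaWT Treg.

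Around the family, 6 lists with 83 genes covered its other members, the caspases and their inhibitors, death receptors, regulators and mitochondrial partners. Of these, 71 were tested in CD4 and 73 in Treg, and 0 passed the limma threshold in either subset, while 4 in CD4 and 10 in Treg had an unadjusted p under 0.05, a threshold that 5.17% of all genes passed in CD4 and 9.12% in Treg. Their median log2 fold change was 0.04 in CD4, against -0.01 over all genes, and 0.01 in Treg, against 0.01 over all genes. In CD4 a positive fold change was found for 1 of 1 other anti-apoptotic and 3 of 5 other pro-apoptotic family genes tested, 9 of 18 apoptosome and caspase genes, 8 of 12 death receptor genes, 16 of 27 regulators and 3 of 8 mitochondrial partners. In Treg the same lists had 2 of 2, 4 of 4, 10 of 20, 6 of 12, 12 of 27 and 3 of 8 positive. The lowest adjusted p in limma was 0.109 in CD4, for the survival kinase gene Pim1 with 1099 ± 255 normalised counts in TRaGS and 547 ± 136 in TRaWT (SD, n = 4 each). In Treg it was 0.0635, for the IL-4 receptor gene Il4ra with 400.4 ± 62.5 in TRaGS and 617 ± 66.9 in TRaWT. Both genes were named after their values were seen.

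Among receptors that sustain Bcl2, Il7r averaged 3223 ± 1112 normalised counts in TRaGS CD4 and 2279 ± 410 in TRaWT CD4, and 2049 ± 154 in TRaGS Treg and 1670.0 ± 347 in TRaWT Treg (SD, n = 4 each). Il2ra, encoding CD25 and used in the sort, averaged 1141 ± 165 in TRaGS Treg and 1499.6 ± 151 in TRaWT Treg. Il2rb, the IL-2 receptor beta chain, averaged 862 ± 91.2 in TRaGS Treg and 613 ± 87.8 in TRaWT Treg without overlap. Foxo3, encoding the forkhead factor, averaged 123 ± 42.3 in TRaGS CD4 and 90.2 ± 65.8 in TRaWT CD4, and 109 ± 22.2 in TRaGS Treg and 102 ± 16.6 in TRaWT Treg. Foxo1, another listed forkhead gene and named after its values were seen, averaged 747 ± 76.2 in TRaGS Treg and 961 ± 96.1 in TRaWT Treg, without overlap. In CD4 Foxo1 averaged 1184 ± 414 in TRaGS and 1145 ± 174 in TRaWT, with overlap. None of these passed the threshold.

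Further BH3-only genes were scarce. Pmaip1, encoding Noxa, averaged 40.8 ± 26.5 normalised counts in TRaGS Treg and 13.1 ± 10.9 in TRaWT Treg, and Bmf, which senses loss of attachment, was at most 42.0, in 1 TRaGS CD4 library, and was 0 in all TRaWT CD4 libraries. Bcl2l2, encoding Bcl-w, was at most 11.2. The death receptor gene Fas averaged 38.7 ± 14.2 in TRaGS Treg and 52.5 ± 14.1 in TRaWT Treg (SD, n = 4 each). Cflar, the caspase-8 inhibitor, averaged 466 ± 95.2 in TRaGS Treg and 403 ± 45.3 in TRaWT Treg. None of those tested passed in either subset.

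The genes with profiles most like that of Bcl2, by Pearson correlation of log2 values centred in each table over the 16 libraries of 8 animals and among 9914 genes, were Gtf2i (r = 0.82), Stk38 (0.80), Eomes (0.80), Pik3cd (0.79) and Mtss1 (0.78). Each had a positive log2 fold change in CD4, from 0.33 to 1.49, and a negative one in Treg, from -0.26 to -0.41. Since they were picked for likeness to Bcl2 in these same libraries, those signs follow from the pick and add nothing. Within the family Mcl1 had r = 0.69, Bcl2l11 0.55 and Bbc3 -0.52. These values describe likeness in libraries that share animals and differ in depth, and carry no test.

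Markers of T cell state were set beside Bcl2. In Treg, 8 effector genes, listed with earlier results of these data known, summed to 4312 to 5469 normalised counts in TRaGS and 2102 to 2807 in TRaWT. Of them 8 of 8 were positive. The limma threshold was passed by 5 of 8 (Klrg1, Il1rl1, Icos, Prdm1 and Itgae), where 0.959% of 11051 genes passed. Given that choice, nothing is read from this count. In CD4 the same genes summed to 625 to 1086 in TRaGS and 413 to 941 in TRaWT, with 5 of 8 positive and 0 passing. Of naive-state genes, Ccr7, Tcf7, Lef1, Klf2 and S1pr1, a selection made after their values were seen, summed to 2553 to 3389.9 in TRaGS Treg and 3239.9 to 3953 in TRaWT Treg, with 5 of 5 negative. In CD4 they summed to 7267 to 11865 in TRaGS and 5838 to 7667 in TRaWT, with 5 of 5 positive, and 0 passed in either subset. The part of cell state in the Bcl2 difference was not tested. Summed B cell markers were 64.2 to 160.3 in TRaGS Treg and 29.2 to 112 in TRaWT Treg, with Cd79a at or below 1.17. Summed CD8 markers were 298 to 344 in TRaGS Treg and 274 to 355 in TRaWT Treg. Their part in the result was not tested either.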

How the data were processed

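The labels' protocols describe QuantSeq 3' mRNA libraries from sorted spleen T cells, and the submitters' processing notes name build GRCm38; the aligner and counter were not stated there. The authors deposited 1 table per subset of normalised counts (unit: signal), which are read counts divided by a library factor. In all 16 libraries 100% of values were whole multiples of 1 step (tolerance 0.001), so reads were recovered. The 2 tables were normalised separately and levels were tested only within a table. Identifiers were named with a reference annotation, 47224 of 47643.

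Values were tested as log2(value + 1) with limma 3.58.1 in R 4.3.3 (mean of at least 5, variance trend on mean expression, Benjamini-Hochberg adjusted p under 0.05) on 4 TRaGS against 4 TRaWT libraries per subset, and on per-animal differences. Fold changes on this scale understate changes of low genes. In CD4 the prior degrees of freedom were infinite, so SEs there come from the trend and not from a gene's own spread. As alternatives, the recovered reads were fitted with DESeq2 1.42.0 and with the quasi-likelihood test of edgeR 4.0.16. RPM divides a gene's recovered reads by the library total. The fitting step was tested on simulated data. Floors are 3 counts. The genes named are the members, listed pathway genes, and those with profiles most like Bcl2. Members and lists were chosen with earlier results of these data known. Labels call the libraries biological replicates. Some listed genes are not reported here.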

Additional observations from a re-analysis of the deposited data

Results flagged for a closer look

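Of 52 groups of 4 libraries examined for a single distant library, 4 had one, and chance gives about 1 in 20. In TRaWT CD4, Bcl2l11 had 89.4 normalised counts in replicate 2 and 169.5 to 184 in the others. Bax had 46.8 in TRaWT CD4 replicate 3 and 16.1 to 20.9 in the others. In Treg of the same TRaWT animal it had 94.5, against 52.3 to 54.0 in the other TRaWT Treg libraries. The log2 ratio of Bcl2 to Bax was 4.07 in that library and 5.13 to 5.22 in the other TRaWT Treg libraries.

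The genotype effect on Bcl2 in Treg minus that in CD4 was -1.87 (log2). It was known when the family was chosen, so it is a description. Its call in limma was lost with the variance trend on the average difference.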

How the results depend on the processing

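Bcl2 kept its direction under every alternative run, with log2 fold changes of 0.92 to 1.14 in CD4, -0.94 to -0.57 in Treg and -1.98 to -1.69 for the difference between subsets. In CD4 its call was lost without the filter on low values and without TRaWT replicate 4, in Treg with TRaGS replicates 1 and 2 alone, and for the difference with the trend on the average difference. No other member passed under any alternative. The sign changed in some for Bid in CD4, for Bcl2a1b and Bbc3 in Treg, and for Bcl2l1 and Bax in the difference.

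Over all genes, 6 passed in CD4, against 1 without the filter, 2 with upper-quartile scaling, 3 with edgeR, 10 with DESeq2, 27 with TRaGS replicates 1 and 2 alone and 3 to 9 leaving out 1 library. In Treg 106 passed, against 62 without the filter, 42 with those 2 TRaGS replicates and 56 (without TRaGS replicate 3) to 108 leaving out 1 library. For the difference 17 passed, 3 higher and 14 lower, against 1 without the filter, 11 with upper-quartile scaling (4 higher, 7 lower), 15 with quantile normalisation (7 higher, 8 lower), 0 with the trend on the average difference (591 at an unadjusted p under 0.05), 34 with those 2 replicates and 12 to 31 leaving out 1 library. With quantile normalisation the 6 CD4 calls split into 5 higher and 1 lower. The cause was not tested.

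Replicate numbers were not used as pairs in the main fits. Correlations of same-numbered libraries, as deviations from their group means, were weak, between -0.021 and 0.046. In CD4 they were 0.009, 0.044, 0.012 and 0.046 for replicates 1 to 4. Not every library correlated best with its own number. Whether equal numbers shared handling was not tested. With the replicate block 4 genes passed in CD4, 112 in Treg and 18 for the difference. Genes with few reads, such as Bcl2a1b and Bbc3 in CD4, are limited by depth.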
